A study of Mus musculus with 12 samples.

Results

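RNA bound to YTHDF1 was set against RNA bound to YTHDF3 in 6 of the 12 libraries of an RNA immunoprecipitation sequencing (RIP-seq) series, 3 libraries of the YTHDF1 RIP and 3 of the YTHDF3 RIP. The libraries were chosen by the antibody named in their labels, and protein-coding genes were described apart from non-coding genes. All of them came from hippocampal neurons taken from neonate mice of the inbred wild-type strain C57BL/6. The neurons were kept in primary culture for 14 days without experimental treatment. By the study's methods, Ara-C was added to such cultures to keep glial cells from growing. Each endogenous protein was recovered with its own antibody, and 3 input libraries of total lysate RNA were prepared from the same cultures. No pull-down with a control antibody was analysed here, and the 2 antibodies may differ in yield and background, which cannot be told apart from binding in a comparison of one with the other.

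YTHDF1 and YTHDF3 are closely related cytoplasmic proteins whose YTH domain binds N6-methyladenosine (m6A), a methylated adenosine placed on many mRNAs by the METTL3 and METTL14 writer complex, often in long exons and near stop codons. In neurons, transcripts carrying the mark occur in dendrites and at synapses, and the YTHDF proteins have been linked to translation, to mRNA decay through the CCR4-NOT deadenylase and to RNA granules. The comparison asked which RNAs the one protein held relative to the other.

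Library totals ran from 10037804 to 38909592 counts for YTHDF1 and from 21395271 to 22400602 for YTHDF3. The YTHDF1 replicates differed more among themselves (Spearman's rho across genes 0.935 to 0.961) than the YTHDF3 replicates (0.949 to 0.983). Levels are given below as normalized CPM, CPM computed on the library size after TMM scaling (CPM being counts scaled to a common total), in the order of replicates 1, 2 and 3. They are not corrected for length and were compared between libraries, not between genes. A gene was called when its fold change was at least 2 and its adjusted p at most 0.05 (edgeR's quasi-likelihood test, Benjamini-Hochberg adjustment over all 16820 genes tested). Fold changes are log2 values of YTHDF1 over YTHDF3, ± SE.

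Neuronal markers were present in every library, as were those of astrocytes. The summed level of 10 pyramidal neuron markers was 2376 to 2948 with YTHDF1 and 1451 to 2720.0 with YTHDF3, and that of 12 astrocyte markers 2076 to 3895 and 1402 to 3705. The fold changes of the astrocyte markers lay between -0.69 and 0.61, short of the 2-fold threshold. Microglia were near the floor, with 1 of 10 markers past the filter on low counts at 0.901 to 2.66 and 1.22 to 3.61. The 8 oligodendrocyte lineage markers tested summed to 391 to 1483 and 63.8 to 591, the 15 interneuron markers to 2336 to 3104 and 781 to 2085, and the 7 endothelial and mural markers to 75.2 to 107 and 18.02 to 123. By the methods the RIPs of a replicate shared 1 lysate, and so the same cells. Between replicates, fewer cells of a type and less RNA per cell cannot be told apart in a lysate of mixed cells. The part of these cells in the results was not tested.

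Among 13390 protein-coding genes, 1252 were higher in the YTHDF1 RIP against 410 in the YTHDF3 RIP, 9.35% and 3.06% of those tested. The median fold change was 0.14, and 90% of the genes lay between -0.91 and 1.64. The balance of directions rested on how libraries were scaled to each other. Scaled by library size alone, the median of all genes moved by -0.73, and 479 protein-coding genes were then higher in the YTHDF1 RIP against 2824 in the YTHDF3 RIP. TMM over protein-coding genes alone gave 896 and 691, the removal of each library's trend with gene length 843 and 678, and a fit of the 6 libraries alone 666 and 494. In that order, these fits moved the median of all genes by -0.20, -0.22 and -0.19. Counts given below with the length trend removed therefore hold this shift as well as the removal of the trend. Counted from the median of protein-coding genes, 362 genes lay at least 4-fold above it and 50 at least 4-fold below it at an adjusted p of at most 0.05. With library size alone these numbers were 333 and 51. Without YTHDF1 replicate 1, 2 and 3 the upper number was 426, 257 and 389 and the lower one 83, 85 and 29. The replicate block described next gave 199 and 28. By the methods the lysate of each replicate was shared between the RIPs. With the replicate number of the labels as a block, the 6 libraries alone gave 245 and 71 calls. The deviations of YTHDF1 replicates 2 and 3 from their group mean correlated best with those of YTHDF3 replicates 3 and 2 (0.427 and 0.366). Whether the number marks the shared lysate was not tested, so the block may pair libraries of different lysates. Where a call named below was lost in the fit with this block, its edgeR adjusted p there is given as the blocked adjusted p. YTHDF1 replicate 2 held the highest value of the 3 YTHDF1 libraries for 57.8% of the 1252 genes, and without it the counts were 997 and 749.

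**Figure D1:**
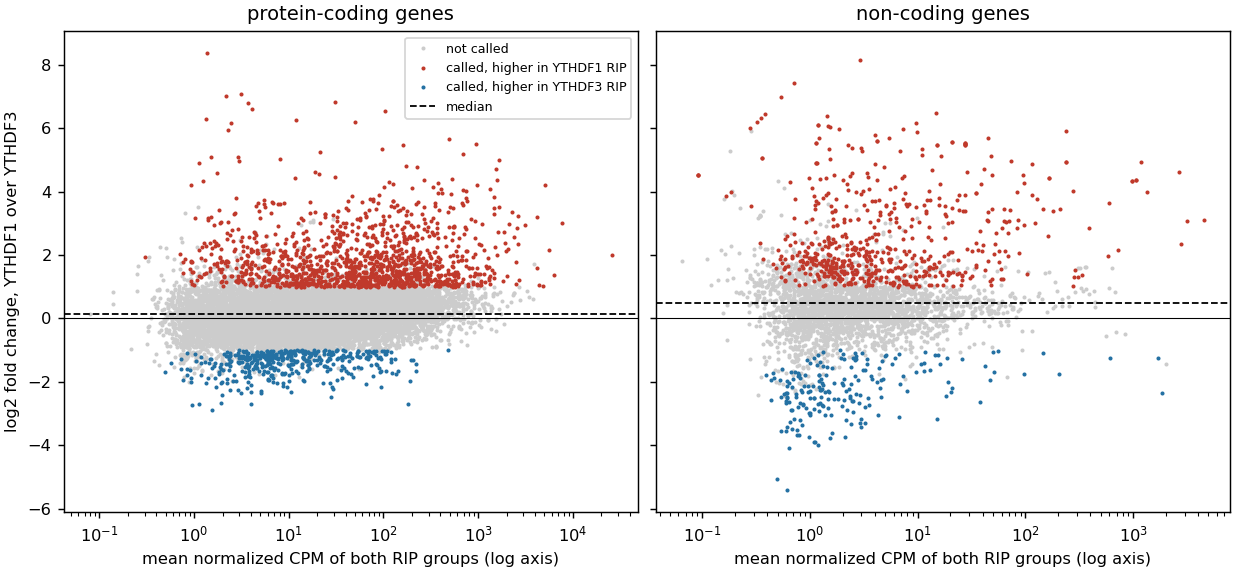
Log2 fold change of YTHDF1 over YTHDF3 against the mean normalized CPM of both RIP groups (log axis), 1 point per gene, for protein-coding genes (left) and non-coding genes (right). Called genes are coloured and the dashed line is the median, 0.14 on the left and 0.47 on the right; the upper tail reaches further than the lower one in both panels.

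The protein-coding genes with the largest ratios, among those whose normalized counts averaged 100 or more and whose groups did not overlap, stood near input level or below it in the YTHDF3 libraries. Kantr, typed as protein-coding although the gene is also known as a long non-coding RNA, lies at chrX:152294828-152327495 (GRCm38, minus strand). Its level was 677, 1595 and 647 in the YTHDF1 RIP against 19.6, 22.6 and 15.2 in the YTHDF3 RIP, where it was close to the input (28.5, 18.4 and 10.8). The difference was 5.67 ± 0.5 (edgeR adjusted p = 4.05e-05). Zfp369, a zinc finger gene, was at 1062, 3131 and 1326 against 42.7, 40.2 and 38.3, with input libraries at 37.6, 38.3 and 37.3 (fold change 5.51 ± 0.4, edgeR adjusted p = 1.53e-05). In both genes replicate 2 was the highest YTHDF1 library, and the YTHDF3 libraries lay close to input.

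Elavl1 encodes HuR, a protein that binds AU-rich 3' UTRs and stabilises mRNA. Its own mRNA was at 672, 2624 and 789.9 with YTHDF1, 40.5, 34.7 and 37.7 with YTHDF3 and 71.2, 72.9 and 78.9 in input, a difference of 5.18 ± 0.49 (edgeR adjusted p = 7.23e-05). Aasdhppt, an enzyme that loads carrier proteins with phosphopantetheine, was at 142, 592 and 209 against 7.30, 7.48 and 6.42 (5.48 ± 0.48). For these 2 genes the YTHDF3 libraries lay below input while the YTHDF1 libraries lay above it, with fold changes over input of 4.2 and -0.98 for Elavl1 and of 4.45 and -1.03 for Aasdhppt. Both comparisons share the input libraries.

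Nopchap1, whose longest coding transcript carries an annotated 3' UTR of 122586 bases, was at 891, 5304 and 3463 against 124, 92.99 and 84.3 (5.0 ± 0.54), and its fold change was 2.79 once the length trend of each library had been removed. Cdr1 was at 26.6, 50.1 and 47.8 against 1.13, 0.555 and 1.52 (5.27 ± 0.56), and Cdr1os, which lies on the opposite strand of the X chromosome and is listed among the non-coding genes, was at 6152, 4763 and 4312 against 326, 173 and 114 (4.63 ± 0.51). Counting used the strand, so the pair was separated as far as the library preparation keeps it. Olfr1564, named as an olfactory receptor, stood at 10.2, 25.3 and 11.97 in the YTHDF1 RIP against 0.544, 0.481 and 0.397 (5.04 ± 0.43). The protocadherin Pcdhb14 followed with 4.82 ± 0.35. Among the 8 genes named here by rank, the fold change was at least 4.16 whichever of the 6 libraries was left out, and each was called with the replicate block.

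The predicted genes Gm10800 and Gm10801 had still larger ratios, 6.54 ± 1.45 and 6.81 ± 1.55. Replicate 1 of the YTHDF1 RIP decided the size. Gm10800 was at 522, 52.4 and 46.2 in the YTHDF1 RIP against 3.73, 1.33 and 1.59 in the YTHDF3 RIP, and its fold change was 4.48 without that library. That of Gm10801 was then 4.32. The genes are neighbours on chromosome 2, and reads with several alignments were counted for each, so the values are not independent.

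At the other end, input lay between the RIPs for all 8 genes named by rank. Rsrp1, which encodes an arginine and serine rich protein, was at 69.6, 56.9 and 20.7 in the YTHDF1 RIP against 344, 290.2 and 320.0 in the YTHDF3 RIP, with input at 104, 93.1 and 85.1. The fold change was -2.7 ± 0.35 (edgeR adjusted p = 0.000418). Clk4, a kinase of SR splicing proteins, was at 10.9, 16.3 and 3.64 against 55.4, 42.9 and 44.5 (-2.23 ± 0.41). Ankrd16 was at 9.60, 11.7 and 4.25 against 47.9, 44.4 and 49.2 (-2.48 ± 0.32). In all 3 genes replicate 3 was the lowest of the YTHDF1 libraries. That their groups did not overlap was a condition of naming them by rank.

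Atp11b, a phospholipid flippase, was at 40.2, 39.6 and 24.2 against 208, 139 and 115 (-2.15 ± 0.31). Guf1, a mitochondrial translation GTPase, was at 9.94, 13.7 and 7.93 against 54.8, 43.8 and 41.6 (-2.15 ± 0.25). Stx3, a syntaxin of membrane fusion, and Pmm2, a phosphomannomutase of protein glycosylation, had fold changes of -2.15 ± 0.3 and -2.12 ± 0.35, and Spaca6 one of -2.33 ± 0.44. Pmm2 lost its call with the replicate block in the 6 libraries (edgeR adjusted p = 0.0515). Of the predicted genes the lowest were 4931428F04Rik at -1.43 ± 0.39 (blocked adjusted p = 0.0751) and Gm44790 at -1.4 ± 0.28 (blocked adjusted p = 0.0639), and neither was called with that block. Exons of Gm44790 overlap those of Tia1 and C87436, so its reads may belong to any of them.

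**Figure D2:**
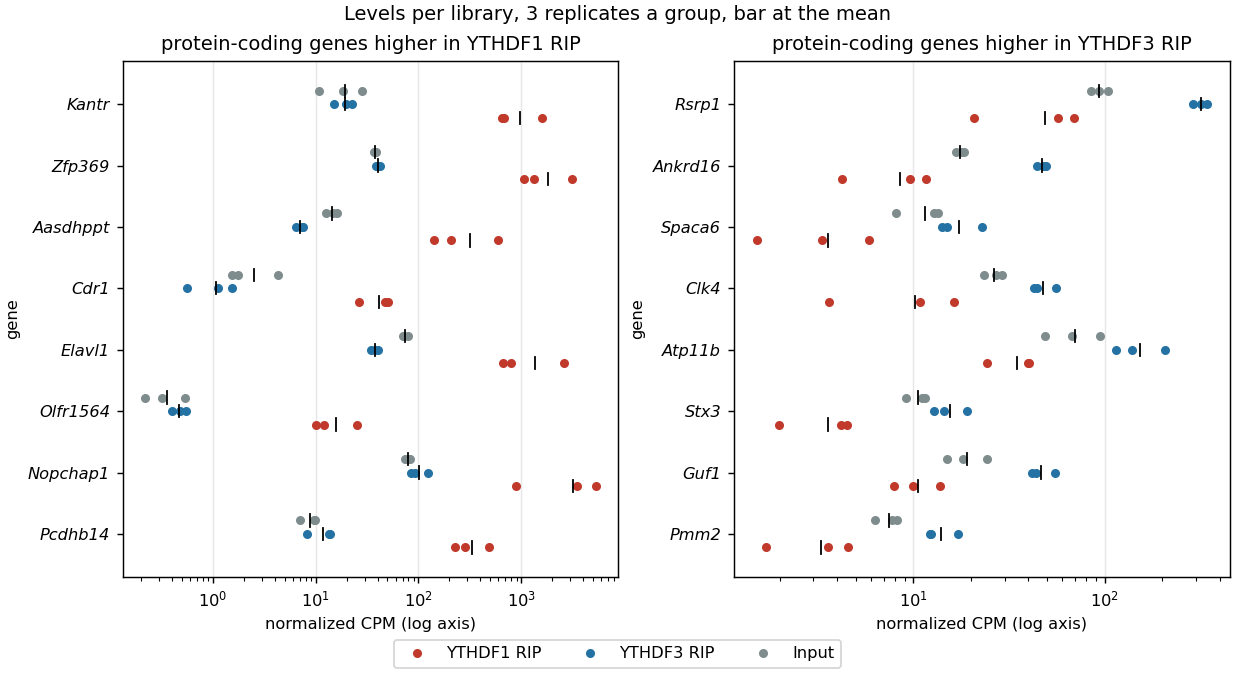
Normalized CPM (log axis) of the 8 protein-coding genes with the largest fold changes in each direction, 1 point per library and a bar at the mean of 3 replicates. The YTHDF1 libraries of the left panel lie above every YTHDF3 and input library of the same gene, and those of the right panel are lower than every YTHDF3 library. The rule for naming required that the RIP groups did not overlap.

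Called genes differed in the shape of their transcripts, described here for the longest coding transcript of each gene (GENCODE M21) and without a test, as genes are not replicates. The median 3' UTR was 2371 bases long in the 1252 genes higher in the YTHDF1 RIP, 1165 in the uncalled genes and 1020 in the 410 genes higher in the YTHDF3 RIP. The longest exon had a median of 3114, 1553 and 1244.5 bases, and the number of exons per kb one of 1.70, 3.22 and 3.89. Genes with a single exon made up 9.27% of the first set, 2.79% of the uncalled genes and 0.976% of the last. A transcript annotated as holding a retained intron was present for 44.4%, 57.7% and 71.5% of the genes. In the sets called after the length trend of each library had been removed, the median 3' UTRs were 2486, 1176 and 1185 bases, so that the last set no longer lay below the uncalled genes, and the exons per kb 1.46, 3.18 and 3.72.

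Base composition moved with the calls as well. The GC content of the transcript had a median of 44.9% in the genes higher in the YTHDF1 RIP, 50.7% in uncalled genes and 47.9% in the genes higher in the YTHDF3 RIP, and the share of U in the 3' UTR one of 32.6%, 28.8% and 30.1% (3' UTRs of at least 100 bases). The pentamer GGACT, the DNA letters of a common m6A consensus searched on the transcript strand, occurred 0.914, 1.06 and 0.965 times per kb and was present at least once in 91.3%, 92.8% and 91.0% of the transcripts, against 92.6% of all protein-coding transcripts tested. Across 13389 genes its density had a Spearman's rho of -0.04 with the fold change, and exons per kb one of -0.16. That of transcript length was 0.15 and that of the longest exon 0.14. The length of the 3' UTR had a rho of only 0.06 across 13368 genes, and its share of U one of 0.11 across 12747. Level differed between the sets too. The mean normalized count over the series had a median of 649 in genes higher in the YTHDF1 RIP, 246 in uncalled genes and 131 in genes higher in the YTHDF3 RIP. These features are related to each other, and the part of transcript length, GC content or level in the calls was not tested beyond the removal of the length trend.

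**Figure D3:**
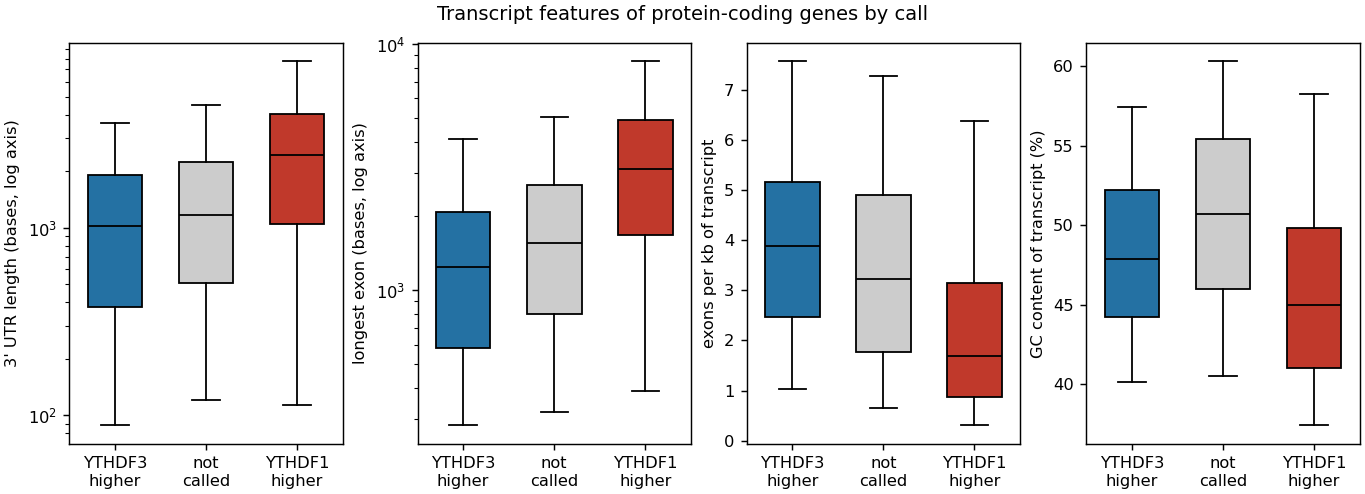
Length of the 3' UTR and of the longest exon (bases, log axes), exons per kb and GC content for protein-coding genes by call, with boxes from the lower to the upper quartile, a line at the median and whiskers at the 5th and 95th percentiles. Genes without an annotated 3' UTR are left out of the first panel; genes higher in the YTHDF1 RIP have the longest median exon, 3114 bases, and the lowest median of exons per kb, 1.70.

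The proteins of the m6A pathway itself are encoded by mRNAs of which 5 were called. Of 12 reader genes 2 (16.7%) were called, both higher in the YTHDF1 RIP, where 9.35% of all protein-coding genes were, and the list median lay 0.20 above that of protein-coding genes. Ythdf3 mRNA was at 141, 269.9 and 231 in the YTHDF1 RIP against 68.02, 74.2 and 62.9 in the YTHDF3 RIP (1.64 ± 0.22, blocked adjusted p = 0.067), and Ythdf2 mRNA at 85.1, 108 and 98.6 against 45.3, 40.5 and 46.6 (1.14 ± 0.15, blocked adjusted p = 0.128). With library size alone neither was called, at 0.89 and 0.4. Ythdf2 also lost its call without YTHDF1 replicate 2 or 3. The same held with TMM over protein-coding genes, without the filter on low counts and with the 6 libraries alone. Ythdf1 mRNA was at 70.2, 52.2 and 95.6 against 64.4, 62.7 and 54.5, overlapping values whose difference of 0.26 ± 0.21 did not pass (edgeR adjusted p = 0.398). These are levels of the mRNAs and say nothing of the precipitated proteins.

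Of 15 writer and eraser genes 3 (20%) were called, all higher in the YTHDF1 RIP, with a list median 0.19 above that of protein-coding genes. Rbm15, which recruits the writer complex to RNA, stood apart at 692, 1074 and 532 against 42.3, 48.4 and 44.1 and an input of 22.9, 28.9 and 26.8, a difference of 4.09 ± 0.26 (edgeR adjusted p = 9.98e-06). The U6 methyltransferase Mettl16 was at 30.5, 108 and 64.7 against 23.8, 19.1 and 23.3 (1.62 ± 0.34, blocked adjusted p = 0.17), where leaving out YTHDF1 replicate 2 or using library size alone ended the call. Rbm15b, the relative of Rbm15, was just past the threshold at 1.05 ± 0.22 (blocked adjusted p = 0.264) and lost the call with every other scaling. Mettl3, the catalytic subunit, was at 14.5, 15.4 and 9.74 against 17.1, 15.8 and 19.98 and was not called (-0.42 ± 0.24).

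Regulators of translation and decay held the highest share of called genes among the protein-coding lists. Of 31 genes in the list of RNA granule, miRNA and translation regulators, 15 (48.4%) were higher in the YTHDF1 RIP against 1 in the YTHDF3 RIP, against 9.35% and 3.06% of all protein-coding genes, and the median lay 0.84 above that of protein-coding genes. Pura, a single-stranded nucleic acid binding protein of dendritic RNA transport, was at 1879, 4027 and 3115 against 185, 160.5 and 95.4 (4.35 ± 0.39). Cpeb2, which binds cytoplasmic polyadenylation elements, was at 1011, 2906 and 1599 against 130.2, 100.1 and 65.1 (4.22 ± 0.43). Over the shared input, the fold changes of Pura were 4.97 in the YTHDF1 RIP against 0.62 in the YTHDF3 RIP, and those of Cpeb2 4.93 and 0.7. Cpeb3, Cpeb4, Elavl2, Elavl4, Purb, Tnrc6b, Tnrc6c, Celf1, Celf2, Ddx6, Ago3, Upf1 and Fxr1 were also called in that direction and were named after their calls were seen.

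Pum2, a Pumilio repressor of translation, was the exception at 90.8, 123 and 137 against 318, 279 and 268 (-1.3 ± 0.19), with a call that did not hold with the replicate block (edgeR adjusted p = 0.0584). The list held 12 and 2 calls after the length trend was removed. Of 16 genes of CCR4-NOT and other deadenylases 3 (18.75%) were higher and 2 (12.5%) lower in the YTHDF1 RIP, against 9.35% and 3.06% of all protein-coding genes. The list median lay 0.11 above that of protein-coding genes. The catalytic subunit Cnot6l was at 141, 457 and 262 against 41.7, 39.8 and 35.3 (2.88 ± 0.37) and Pan3, of the other deadenylase, at 306, 381 and 299 against 86.2, 76.9 and 72.2 (2.07 ± 0.18). A second catalytic subunit, Cnot7, moved the other way, at 15.1, 25.5 and 17.1 against 67.6, 52.9 and 50.8 (-1.57 ± 0.21), and Cnot10 was at -1.0 ± 0.15 (blocked adjusted p = 0.0781), a call that ended without YTHDF3 replicate 3.

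Chromatin regulators, many of them with long mRNAs, had 16 of 47 genes (34.0%) called, all higher in the YTHDF1 RIP, with a median 0.57 above that of protein-coding genes. Of all protein-coding genes 9.35% were called in that direction and 3.06% in the other. Crebbp, a histone acetyltransferase, was at 2955, 3574 and 3274 against 488, 501 and 493 (2.73 ± 0.18), with replicates of each group close together. Kmt2d, a methyltransferase of histone H3, was at 2486, 1844 and 3188 against 605, 667 and 604 (2.0 ± 0.23, blocked adjusted p = 0.0708). With the length trend removed the list held 4 calls, and the fold changes of Crebbp and Kmt2d were 2.23 and 1.26. Of 371 Zfp zinc finger genes 66 (17.8%) were higher in the YTHDF1 RIP against 3 in the YTHDF3 RIP, and 53 and 6 after the length trend was removed, and the median lay 0.24 above that of protein-coding genes. Zfp26 reached 4.4 ± 0.42, whereas Zfp57, a repressor at imprinted loci, was at 24.5, 37.9 and 12.8 against 101, 83.2 and 131 (-2.07 ± 0.36) and lost its call with the replicate block in the 6 libraries (edgeR adjusted p = 0.0527).

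The clustered protocadherins, adhesion proteins that give neurons their surface identity, split by cluster. All 20 of the called genes belonged to the beta cluster, in which 20 of 21 genes were higher in the YTHDF1 RIP, with fold changes from 0.78 to 4.82 and a median of 2.83. The 14 alpha genes lay between 0.18 and 0.25 and the 21 gamma genes between 0.38 and 0.62, all short of the 2-fold threshold. Genes of the beta cluster have 1 exon each, whereas alpha and gamma genes share their last exons, so that a read there is counted for many genes and their values are not independent. Pcdhb15 was at 79.2, 121 and 60.4 against 7.03, 5.22 and 5.56 and an input of 2.67, 2.86 and 2.47 (3.87 ± 0.27). The count in the beta cluster was again 20 with the length trend removed. Single-exon protein-coding genes without protocadherins and histones had 84 of 396 (21.2%) higher in the YTHDF1 RIP against 3 in the YTHDF3 RIP. For all protein-coding genes the shares were 9.35% and 3.06%.

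Histone genes had the highest median of the protein-coding lists, 2.06 above that of protein-coding genes, and 12 of 39 were higher in the YTHDF1 RIP against 1 in the YTHDF3 RIP (30.8% and 2.56%, against 9.35% and 3.06% of all protein-coding genes). With the length trend removed the calls numbered 6 and 1. Replication-dependent histone mRNAs end in a stem-loop rather than a poly(A) tail, and the copies share sequence, so their counts are not independent. H2ac15 showed the spread behind them, at 9.37, 78.1 and 6.02 with YTHDF1, 0.815, 2.44 and 4.07 with YTHDF3 and 5.94, 13.7 and 34.5 in input (3.66 ± 1.02, blocked adjusted p = 0.142). Its YTHDF1 mean rested on replicate 2, and the call ended without that library and also without YTHDF3 replicate 1 or 2. The linker histone H1f0 was at 43.5, 36.3 and 36.8 against 73.6, 109 and 92.6 (-1.24 ± 0.23, blocked adjusted p = 0.0687).

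Splicing factors were called in both directions. Of 33 SR protein and hnRNP genes 5 (15.2%) were higher in the YTHDF3 RIP, against 3.06% of all protein-coding genes. In the YTHDF1 RIP 2 (6.06%) were higher, against 9.35%. Tra2a, a splicing activator, was at 15.7, 35.2 and 11.9 against 84.2, 70.7 and 68.8 (-1.83 ± 0.33), and Srsf2, an SR protein, at 24.3, 45.2 and 17.7 against 82.04, 82.2 and 92.6 (-1.56 ± 0.34), a call that did not hold with the replicate block in the 6 libraries (edgeR adjusted p = 0.0521). The other 3 were Srsf7, Srsf11 and Hnrnpdl, named after their calls were seen. The list median was 0.11 above that of protein-coding genes. Hnrnpd, which binds AU-rich elements, went the other way at 117, 421 and 191 against 81.8, 78.3 and 93.8 (1.52 ± 0.36, blocked adjusted p = 0.212), and its call ended without YTHDF1 replicate 2 and with library size alone.

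Synaptic and channel genes gave a few strong differences within lists whose medians lay between -0.21 and 0.17 of that of protein-coding genes. The shares of called genes given here for lists stand beside the 9.35% of all protein-coding genes that were higher in the YTHDF1 RIP. Of 22 glutamate receptor genes 4 (18.2%) were called, all higher in the YTHDF1 RIP. With the length trend removed 2 were called, and the list median was then -0.10 from that of protein-coding genes. The metabotropic receptor Grm5 was at 1599.8, 3975 and 2882 against 522, 414 and 338 (2.73 ± 0.33). Of 14 GABA receptor genes 2 (14.3%) were called, Gabrg3 at 2.75 ± 0.57 (blocked adjusted p = 0.103) and Gabrg1 at 1.96 ± 0.46. Potassium channels had 11 of 68 genes (16.2%) called, all higher in the YTHDF1 RIP, led by Kcnmb2, an auxiliary subunit of BK channels, at 19.1, 66.7 and 34.4 against 2.10, 2.0 and 0.992 (4.56 ± 0.48), and Kcnb2 at 3.01 ± 0.33. Sodium and calcium channels had 5 of 32 (15.6%) called in that direction, and 1 after the length trend was removed. Scn1a, at 1.75 ± 0.55 (blocked adjusted p = 0.243) with overlapping groups, lost its call in 4 of the 6 fits that left out a library.

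Of 29 postsynaptic scaffold and adhesion genes 4 (13.8%) were called, all higher in the YTHDF1 RIP, against 9.35% of all protein-coding genes, and 1 was called in that direction after the length trend was removed. They included the neuroligin Nlgn3 at 1648, 1563 and 2135 against 388, 374 and 313 (2.31 ± 0.19) and the neurexin Nrxn3 at 1.89 ± 0.53 (blocked adjusted p = 0.187), whose call ended without YTHDF1 replicate 3, YTHDF3 replicate 2 or YTHDF3 replicate 3. Of 28 presynaptic genes 1 was called, the active zone scaffold Pclo at 1.78 ± 0.36 (blocked adjusted p = 0.131), and its fold change was 0.96 with the length trend removed. Shank1, a postsynaptic scaffold, was at 1258, 872 and 1453 against 1539, 1582 and 1397 and was not called (-0.33 ± 0.23). Of 10 pyramidal neuron markers 2 were called, both higher in the YTHDF1 RIP, among them Bcl11b at 2.14 ± 0.27, and the list median lay 0.16 above that of protein-coding genes. Of 15 interneuron markers 2 were called in that direction, Erbb4 at 2.87 ± 0.57 (blocked adjusted p = 0.111) and Reln at 1.31 ± 0.3 (blocked adjusted p = 0.147). The interneuron list did not follow them, as its median was -0.06, 7 of its 15 members lay above the median of protein-coding genes and the lowest was at -1.36. The mural marker Rgs5, at 0.116, 0.782 and 0.397 against 1.28, 1.48 and 1.42 (-1.61 ± 0.47, blocked adjusted p = 0.163), was higher in the YTHDF3 RIP, and its call ended when any library but YTHDF1 replicate 2 was left out. It was the only call among 7 endothelial and mural markers, whose median was 0.20, with 5 of 7 above the median of protein-coding genes and the highest at 0.92. The 22 activity-induced immediate early genes had fold changes between 0.04 and 1.37 and a median 0.57 above that of protein-coding genes, and the highest, Bdnf, did not pass (edgeR adjusted p = 0.111).

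Cytoskeletal genes had 2 of 30 members (6.67%) called, both higher in the YTHDF1 RIP, and a median 0.57 above that of protein-coding genes. Of 66 kinesins and dyneins 2 (3.03%) were higher and 1 (1.52%) lower in the YTHDF1 RIP. These shares lay below those of all protein-coding genes, 9.35% and 3.06%. Map1b, which binds microtubules, was at 29679, 56935 and 36256 against 11732, 9232 and 9901 (1.99 ± 0.31), and the dynein heavy chain Dync1h1 at 8186, 7811 and 11648 against 2236, 2084 and 1831 (2.17 ± 0.26). Actb, encoding beta-actin, was at 1240.4, 4404 and 1912 against 594, 464 and 509 and 1922, 1805 and 2348 in input (2.27 ± 0.39), so that the YTHDF3 libraries lay below every input library and the YTHDF1 libraries on both sides of input. Map2, of dendritic microtubules, had overlapping values of 2889.9, 4601 and 5160.4 and 3449.6, 2586 and 1942 (0.67 ± 0.29, edgeR adjusted p = 0.123). None of the calls for Map1b, Dync1h1 and Actb held with the replicate block in the 6 libraries, at edgeR adjusted p = 0.149, 0.0729 and 0.106.

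Of 77 cytosolic ribosomal protein genes 12 (15.6%) were called, all higher in the YTHDF1 RIP, against 9.35% of all protein-coding genes. The list median lay 0.69 above that of protein-coding genes, and 7 genes were called after the length trend was removed. Their median fold changes over input were -2.46 and -3.46 in the YTHDF1 and YTHDF3 RIPs, which share the input libraries. Rpl38 was at 8.44, 31.1 and 3.25 against 4.04, 2.74 and 4.10 with input at 51.6, 51.96 and 75.9 (1.97 ± 0.62, blocked adjusted p = 0.444), and Rps29 at 4.39, 7.61 and 1.44 against 1.55, 1.30 and 0.860 (1.83 ± 0.47, blocked adjusted p = 0.199). In both genes the lowest YTHDF1 library lay below the highest YTHDF3 library, replicate 2 was the highest YTHDF1 library, and neither was called without it or without YTHDF3 replicate 2 or 3. Respiratory chain and ATP synthase genes gave 9 (11.5%) and 1 of 78, shares close to or below the 9.35% and 3.06% of all protein-coding genes, and 2 and 1 with the length trend removed. Their median lay 0.42 above that of protein-coding genes, with Ndufa2 at 2.09 ± 0.36 (blocked adjusted p = 0.115) and Ndufb5 at -1.14 ± 0.3 (blocked adjusted p = 0.104). Mitochondrial ribosomal proteins gave 2 and 2 of 77 with a median of 0.02, and there Mrps10 at -1.76 ± 0.22 and Mrpl33 at -1.53 ± 0.23 (blocked adjusted p = 0.0611) were higher in the YTHDF3 RIP. Translation factors had 3 of 67 called, all higher in the YTHDF1 RIP, with Eif4e3 at 2.07 ± 0.32 (blocked adjusted p = 0.0558), and the proteasome 1 of 35, Psmb7, at the threshold with 1.0 ± 0.21 (blocked adjusted p = 0.25). Their list medians were 0.27 and 0.34. Of 10 RNAs the study followed 3 were called, Actb, Ythdf3 and Ythdf2, with a median of 0.47.

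**Figure D4:**
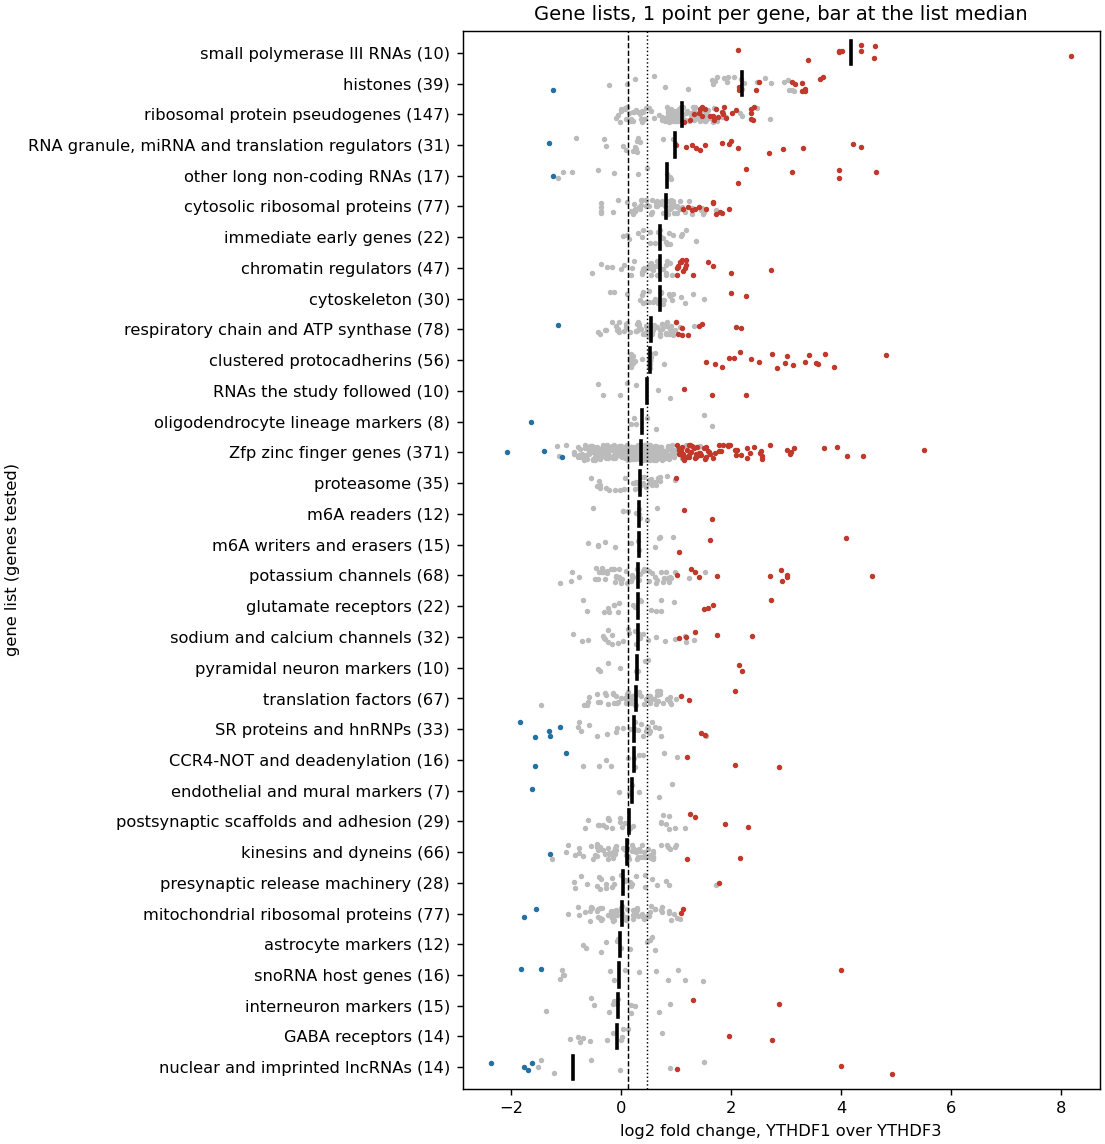
Log2 fold change of YTHDF1 over YTHDF3 for the tested members of each gene list with at least 5 of them, 1 point per gene, with called genes in red (higher in the YTHDF1 RIP) or blue (higher in the YTHDF3 RIP) and a bar at the list median. The dashed line is the median of protein-coding genes, 0.14, and the dotted line that of non-coding genes, 0.47; small polymerase III RNAs, with a median of 4.18, and histones, with 2.19, lie furthest to the right.

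Non-coding genes were tested in the same fit. Of 3430 genes, 590 (17.2%) were higher in the YTHDF1 RIP, whereas 199 (5.8%) were higher in the YTHDF3 RIP, and the median fold change was 0.47. With library size alone the counts were 283 and 569, with TMM over protein-coding genes 460 and 260, with the length trend removed 346 and 310, with the 6 libraries alone 226 and 136, and with the replicate block in the 6 libraries 83 and 30. Without YTHDF1 replicate 2 they were 386 and 252, without YTHDF3 replicate 2 they were 294 and 153, and without YTHDF3 replicate 3 they were 356 and 162. By type, 23 of 35 rRNA genes, 28 of 51 snRNA genes, 29 of 73 snoRNA genes, 24 of 46 miscellaneous RNA genes, 45 of 189 miRNA genes and 260 of 1819 pseudogenes were higher in the YTHDF1 RIP. In the same order 0, 1, 8, 7, 17 and 18 were higher in the YTHDF3 RIP. All 3 ribozyme genes were higher in the YTHDF1 RIP. Of 868 long non-coding RNAs 111 were higher in the YTHDF1 RIP against 71 in the YTHDF3 RIP. Genes typed as TEC, loci whose transcripts await experimental support, leaned the other way by count, with 65 of 337 higher in the YTHDF1 RIP against 77 in the YTHDF3 RIP. Their median fold change was 0.08, and their share of all counts, given below, was higher in the YTHDF1 RIP. Many small RNA genes are copies of each other, and reads with several alignments were counted at each.

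Shares of all counts were compared by a two-sided exact permutation test, which cannot go below p = 0.1 with 3 libraries against 3. Protein-coding genes took 92.9 ± 3.20% of counts in the YTHDF1 RIP against 94.9 ± 0.411% in the YTHDF3 RIP (SD, n = 3 each, exact permutation p = 0.4), against 63.2 ± 1.31% in input. Genes typed as miRNA took 3.46%, 1.48% and 0.358% in the 3 YTHDF1 libraries and 0.485%, 0.311% and 0.375% in the YTHDF3 libraries, so that replicate 3 of the YTHDF1 RIP lay within the other group (exact permutation p = 0.3). The snRNA shares were 1.32%, 0.162% and 0.0554% against 0.233%, 0.127% and 0.222% (exact permutation p = 0.9). Those of snoRNA were 0.175%, 0.0348% and 0.0200% against 0.0242%, 0.0221% and 0.0293% (exact permutation p = 0.4). In both types YTHDF1 replicate 1 was the highest library and YTHDF1 replicate 3 the lowest. Genes typed as rRNA took 0.0327 ± 0.0266% and 0.00676 ± 0.00271% (exact permutation p = 0.1, the smallest possible), against 0.123 ± 0.0165% in input. Miscellaneous RNA took 0.442 ± 0.312% and 0.0684 ± 0.0105% (exact permutation p = 0.1), against 10.2 ± 0.805% in input. For rRNA and miscellaneous RNA every YTHDF1 library lay above every YTHDF3 library. The same held for TEC genes, at 0.173%, 0.214% and 0.159% against 0.139%, 0.125% and 0.131% (exact permutation p = 0.1).

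The small RNAs made by RNA polymerase III were the list that stood furthest apart, and 3 of them are printed here because they are short enough to be seen whole. Y RNAs bind the Ro60 protein, and BC1 is a neuronal RNA that represses translation in dendrites. The sequences are those of GENCODE M21 on GRCm38, in DNA letters. For Rny1 (chr6:47788069-47788180, minus strand) and Rny3 (chr6:47781624-47781725, plus strand) capitals mark the longest run of bases the 2 RNAs share, 12 bases, and for Bc1 (chr7:144914470-144914637, plus strand) the longest stretch that begins and ends with A and holds at least 80% A, 60 bases.
Rny1: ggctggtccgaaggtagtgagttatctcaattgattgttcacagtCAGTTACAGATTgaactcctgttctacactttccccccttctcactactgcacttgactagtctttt
Rny3: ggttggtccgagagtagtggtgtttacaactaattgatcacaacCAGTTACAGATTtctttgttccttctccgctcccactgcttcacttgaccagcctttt
Bc1: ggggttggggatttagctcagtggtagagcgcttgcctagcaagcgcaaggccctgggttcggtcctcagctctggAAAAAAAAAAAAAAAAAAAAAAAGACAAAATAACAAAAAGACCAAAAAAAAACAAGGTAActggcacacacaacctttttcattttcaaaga

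All 10 tested members of that list were higher in the YTHDF1 RIP, with a median fold change of 4.18 against 0.47 for non-coding genes. Rmrp has 2 entries among them and the 7SL genes Rn7s1 and Rn7s2 are near copies, so the 10 are not independent. Rny3 was at 76.8, 81.8 and 7.64 in the YTHDF1 RIP against 2.72, 1.48 and 2.58 in the YTHDF3 RIP, and at 187, 292 and 414 in input (4.61 ± 0.77, edgeR adjusted p = 0.00178). Rny1 was at 7.40, 6.33 and 0.505 against 0.194, 0.111 and 0.232 and 54.6, 88.5 and 86.4 in input (4.6 ± 0.88). Bc1 was at 14.9, 15.4 and 6.06 against 4.08, 3.44 and 0.728 and 311, 262 and 148 in input (2.13 ± 0.59). In these 3 RNAs every RIP library lay below input, replicate 3 was the lowest YTHDF1 library, and the groups did not overlap. The call of Bc1 ended without YTHDF1 replicate 1 or 2, without YTHDF3 replicate 2 or 3, with library size alone and with the length trend removed.

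The same order held for longer members. Rpph1, the RNA of RNase P, was at 478, 452 and 51.5 against 47.1, 26.1 and 20.2 (3.39 ± 0.66), although part of it overlaps Ccnb1ip1, and Rn7sk, which holds the elongation factor P-TEFb inactive, at 556, 893 and 102 against 34.4, 25.8 and 35.6 (4.02 ± 0.69). The vault RNA Vaultrc5 was at 7.17, 9.60 and 0.649 in the YTHDF1 RIP, while the 3 YTHDF3 libraries held 1, 0 and 0 counts, too few for a fold change to be read. With the replicate block in the 6 libraries the calls of Rny1, Rny3, Rpph1 and Rn7sk ended, at edgeR adjusted p = 0.0967, 0.065, 0.0596 and 0.0633.

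The non-coding genes named by rank were mostly unnamed loci. Gm45791, a processed pseudogene, was at 15.7, 20.1 and 20.9 in the YTHDF1 RIP against 0.388, 0.333 and 0.0662 in the YTHDF3 RIP (6.16 ± 0.56). 9330121K16Rik was at 216, 649.9 and 535 against 10.4, 9.22 and 3.57 (5.91 ± 0.6). Gm37464 was at 6.47 ± 0.79 and Gm47033, whose YTHDF1 values were 12.5, 200.4 and 53.4, at 5.68 ± 0.83. Gm26870 was at 50.1, 3.91 and 4.33 against 0.233, 0.444 and 0.265 (5.9 ± 1.35, blocked adjusted p = 0.0534), where replicate 1 held most of the signal and the fold change without it was 3.69.

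At the other end were long non-coding RNAs. C78859 was at 3.24, 4.48 and 1.51 against 40.7, 22.7 and 18.1 (-3.17 ± 0.44) and Mir100hg, the host transcript of a miRNA cluster, at 12.4, 13.2 and 6.09 against 60.96, 53.4 and 78.5 (-2.62 ± 0.3). Meg3, an imprinted RNA of the Dlk1-Dio3 region found largely in nuclei, was at 867, 756 and 216 with YTHDF1, 4561, 2967 and 1858 with YTHDF3 and 2625, 1783 and 1090.0 in input (-2.35 ± 0.52). The groups did not overlap, as the rule for naming required, and replicates of each differed by more than 2-fold. Mir770 lies within a Meg3 exon on the same strand, so its -2.46 ± 0.54 is not independent. A330023F24Rik, at -2.31 ± 0.47, overlaps Mir29c.

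Of 14 nuclear and imprinted long non-coding RNAs 4 were higher in the YTHDF3 RIP (Meg3, Miat, Firre and Ftx) and 3 in the YTHDF1 RIP (Gm26917, Snhg14 and Peg13), 6 and 2 with the length trend removed, and the median lay -1.35 from that of non-coding genes. The 4 and 3 calls were 28.6% and 21.4% of the list, against 5.8% and 17.2% of all non-coding genes. The nuclear RNAs Neat1 at -1.51 and Malat1 at -1.45 did not pass. Snhg14, the long host of the Prader-Willi snoRNA cluster, was at 1468, 4032 and 2091 against 216, 125 and 134 (4.0 ± 0.4). Gm26917, at 5785, 738 and 327 against 92.5, 65.8 and 66.7, rested on replicate 1 (4.93 ± 0.92, blocked adjusted p = 0.064, and 2.83 without that library). Miat was at 103, 153 and 21.96 against 322, 291 and 328 (-1.76 ± 0.51, blocked adjusted p = 0.106) and lost its call in 4 of the 6 fits that left out a library. Of 16 snoRNA host genes Snhg5 at -1.81 ± 0.43 (blocked adjusted p = 0.111) and Snhg17 at -1.45 ± 0.37 (blocked adjusted p = 0.0874) were higher in the YTHDF3 RIP, 4 genes with the length trend removed, and the list median was -0.03. Of 17 other long non-coding RNAs 6 entries, Bc1, Rmrp and Cdr1os among them, were higher in the YTHDF1 RIP, 4 with the length trend removed, and the median was 0.84. The 1 that was higher in the YTHDF3 RIP was Norad, a long cytoplasmic RNA that binds Pumilio proteins, at 1043, 713 and 1278 against 2763, 2526 and 1885 (-1.24 ± 0.28, blocked adjusted p = 0.126). Ribosomal protein pseudogenes had 24 of 147 (16.3%) called, all higher in the YTHDF1 RIP, close to the 17.2% of all non-coding genes, and 7 after the length trend was removed. Their median was 1.11, but their reads cannot be told apart from those of the parent genes.

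**Figure D5:**
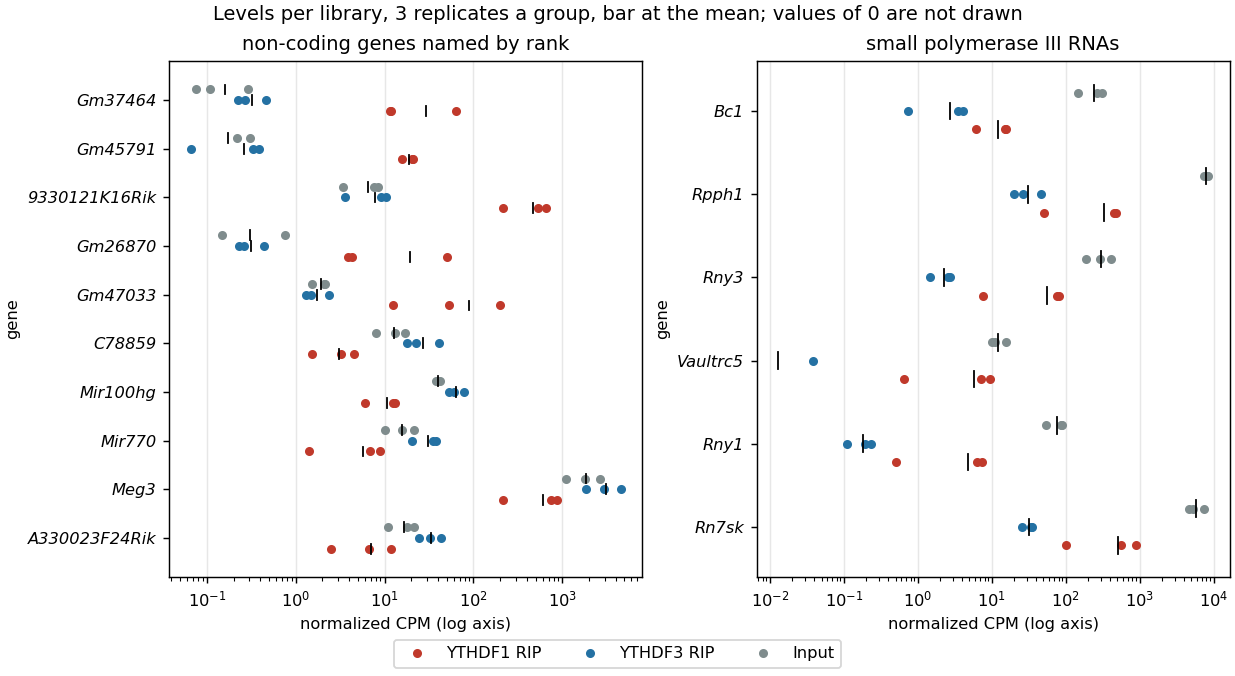
Normalized CPM (log axis) of the 10 non-coding genes named by rank (left) and of 6 small polymerase III RNAs (right), 1 point per library and a bar at the mean of 3 replicates, with values of 0 not drawn. On the right every RIP library of a given RNA lies below its input libraries and every YTHDF1 library above the YTHDF3 libraries.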

How the data were processed

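Per the labels and the study's methods, lysates of cultured neurons were pooled per replicate and divided among the RIPs, with 1 shared input, and stranded total-RNA libraries carried unique molecular identifiers. The submitters' processing notes name UMI-tools 1.1.1, cutadapt 3.4, STAR 2.7.7a and featureCounts 2.0.1 on mm10. The authors deposited raw counts per gene, in which a read overlapping several genes or with several alignments was counted for each. The authors' DESeq2 tables hold fold changes and p-values against input, which were not used, and only gene types were taken from one of them.

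Of 55573 genes, 16820 were tested, those whose DESeq2-normalized counts averaged 10 or more across the series. Types came from the deposited table or, where it gave none, from GENCODE M21. edgeR 4.0.16 (R 4.3.3) fitted 1 quasi-likelihood model with 4 groups to all 12 libraries after TMM scaling (biological coefficient of variation 0.322). In fits of the 6 compared libraries alone this coefficient was 0.363, and 0.391 with the replicate block. The 12-library fit was also run on simulated counts with the same spread in all groups and few changed genes, balanced in direction. That run does not bear on the scaling or on the unequal replicates of the real libraries. SE is the fold change over the square root of F. The p-values of the 12-library fit measure the spread between replicates in all 4 groups, not in the 6 compared libraries alone.

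Genes were named by a rule: among called genes with a mean of at least 100 normalized counts over the 6 libraries and no overlap between groups, the 8 largest changes in each direction for protein-coding genes (predicted genes apart, 2 each), 5 each for non-coding genes, from each list the 2 highest and 2 lowest members, and members of the m6A lists and of the RNAs the study followed. Rny1, Rn7sk and other called list members were added after their values were seen. A few genes that the rule names are not reported here. Members, lists and tests were chosen with earlier results of these data known. Same-numbered YTHDF1 and YTHDF3 libraries share a lysate by the methods, but their deviations from the group means correlated at 0.106, -0.341 and -0.351. Between libraries of different number the correlations ran from -0.193 to 0.427. The lowest was YTHDF1 replicate 2 with YTHDF3 replicate 1 and the highest YTHDF1 replicate 2 with YTHDF3 replicate 3. YTHDF1 replicate 3 with YTHDF3 replicate 2 was at 0.366. Whether the replicate number marks the shared lysate in both RIPs was not tested. Alternatives were DESeq2 1.42.0, other scalings and filters, the 6 libraries alone, the replicate block, removal of a length trend (loess, span 0.3), and each of the 6 libraries left out.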

Additional observations from a re-analysis of the deposited data

How the results depend on the processing

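The counts of called genes moved by over 1.5 times with scaling, with the libraries fitted, with the replicate block in the 6 libraries, with the length trend removed and, for some counts, with the filter. Protein-coding genes higher in the YTHDF1 RIP numbered 479 with library size alone, 666 with the 6 libraries alone, 245 with these and the replicate block, and 797 with the block and the length trend removed. Those higher in the YTHDF3 RIP numbered 2824, 71 and 663 with library size alone, the block in 6 libraries, and block with length trend, and 691 with TMM over protein-coding genes, 739 with no filter and 678 with the length trend removed. Leaving out a library gave 944 to 1367 and 334 to 749. Non-coding genes higher in the YTHDF1 RIP numbered 283 with library size alone, 937 with no filter, 294 at a minimum mean of 50, 226 with the 6 libraries alone, 83 with the block there, 346 with the length trend removed and 305 with the block as well. Those higher in the YTHDF3 RIP were 569, 435, 79, 30, 310 and 305, in the same order but without the 6 libraries alone. Leaving out a library gave 294 to 673 and 138 to 252. Listed genes higher in the YTHDF1 RIP were 101, 129, 62, 156 and 149 with library size alone, the 6 libraries alone, the block there, the length trend removed, and the block as well. Those higher in the YTHDF3 RIP were 187, 5, 44 and 44 without the second of these, 42 with TMM over protein-coding genes and 47 with no filter. Leaving out a library gave 165 to 293 and 21 to 53. The replicate block in all 12 libraries gave 1153 and 405 protein-coding and 439 and 193 non-coding calls.

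Of 93 genes named with values, 45 kept their direction and their side of the threshold under every alternative run, and 42 lost the call with the block in 6 libraries. The fold change of Ythdf1, not called, was -0.46 with library size alone and -0.12 to 0.33 with a library left out, and that of Map2 -0.069 with library size alone. With a library left out, the difference in share of counts between the RIPs (YTHDF1 minus YTHDF3, percentage points) ranged from -0.497 to 0.140 for lncRNA, where it was above 0 without YTHDF1 replicate 3 and also without YTHDF3 replicate 1 (0.0142), from -0.356 to 0.0608 for pseudogenes (0.0111 without YTHDF1 replicate 3) and from -0.0854 to 0.548 for snRNA, below 0 without YTHDF1 replicate 1. The causes of these changes were not tested.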
